A study of Mus musculus with 24 samples.

Results

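Messenger RNA of 10 hypoxia and glycolysis genes was followed over 24 microarrays of mouse B16 melanoma tumours. The genes are Car9, Vegfa, Slc2a1, Ldha, Pdk1, Ndrg1, Bnip3, Adm, Egln3 and Hk2. They were chosen by name. A probeset counted only if its annotation lists a single gene, and a gene with several was represented by its brightest. All 10 were found, among 19938 genes measured in this way. Bnip3 has 2 such probesets and every other member has 1. Which of the 2 reads Bnip3 alone could not be checked here.

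B16 is a pigmented mouse melanoma line. In all 6 groups, mice aged 6 to 12 weeks carried a tumour grown from 500000 B16 cells injected under the skin. The No treatment mice received nothing further, and the labels state no irradiation for them. The Mock and IL-12TD mice received 5 Gy of total body irradiation 10 to 14 days after the tumour cells, together with 100000 pmel-1 CD8+ T cells. These T cells carry a receptor for a melanocyte antigen. They were un-transduced in the Mock arm and transduced with the cytokine interleukin-12 in the IL-12TD arm. Tumours were taken at day 3 and at day 7, with 4 biological replicates per arm and day, and the RNA came from single-cell suspensions of whole tumours. A comparison of either T cell arm with No treatment therefore covers irradiation and T cells together. For the Mock day 7 tumours a single label field gives 3 days and all others give 7, and they are treated here as day 7. Strain, sex and any array batch are not given in the sources used here, so batch and day cannot be told apart.

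Cells that run short of oxygen stabilise hypoxia-inducible factor (HIF), a transcription factor whose alpha subunit is marked for destruction by prolyl hydroxylases when oxygen is present. HIF raises genes that bring glucose into the cell and turn it into lactate, that hold pyruvate back from the mitochondria, that export acid and that call in blood vessels. In solid tumours such genes are commonly high in tissue far from vessels, and several of them also follow growth factor signalling and proliferation. Among the members, Slc2a1 (the glucose transporter GLUT1), Hk2 (hexokinase) and Ldha (lactate dehydrogenase) serve glycolysis. Pdk1 is a kinase that inhibits pyruvate dehydrogenase. Car9 is a cell-surface carbonic anhydrase that acidifies the space outside the cell. Vegfa and Adm are secreted peptides that act on vessels. Bnip3 acts in mitophagy and cell death, Ndrg1 is a stress-induced differentiation gene, and Egln3 is a prolyl hydroxylase that targets HIF.

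HIF binds a short core that can be read as ACGTG or GCGTG on either strand, so CACGT and CACGC are the same cores on the opposite strand. The 250 bases upstream of each start site in the RefSeq promoter table (GRCm38.p6) were searched, and 9 of the 10 members had an entry; Ndrg1 had none. ACGTG was present for 7 of the 9 members, against 18.5% of all 27025 genes in that table, and GCGTG for 6 of 9, against 30.9%. These matches are letters in a window and no binding was measured. The stretch just before the start site is shown for 3 genes that were lower in IL-12TD tumours at day 7 (Car9, Adm, Pdk1) and for Hk2, which was higher at day 7 in all arms. For Pdk1 it is cut a few bases short of that site. The windows are chr4:43506901-43507025 (plus strand) for Car9, chr7:110627532-110627656 (plus strand) for Adm, chr2:71873099-71873214 (plus strand) for Pdk1 and chr6:82774455-82774579 (minus strand) for Hk2. They are written 5′ to 3′ with the cores in capitals.
Car9: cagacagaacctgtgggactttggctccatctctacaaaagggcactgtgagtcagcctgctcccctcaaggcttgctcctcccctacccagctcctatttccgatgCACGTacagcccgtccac
Adm: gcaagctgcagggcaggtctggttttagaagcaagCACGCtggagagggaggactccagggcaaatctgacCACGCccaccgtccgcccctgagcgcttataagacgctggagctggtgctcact
Pdk1: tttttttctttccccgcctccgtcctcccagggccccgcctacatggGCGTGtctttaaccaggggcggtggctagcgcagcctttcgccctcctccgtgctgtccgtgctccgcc
Hk2: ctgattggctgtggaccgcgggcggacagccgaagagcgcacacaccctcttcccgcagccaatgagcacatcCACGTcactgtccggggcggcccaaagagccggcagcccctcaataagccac
Car9 holds 1 core in this stretch, which begins at -18 from the start site. Adm holds GCGTG cores at -90 and -54, Pdk1 holds 1 at -78, and Hk2 holds an ACGTG core at -52 with another further upstream at -226. Vegfa has no core in its first listed window and both in its second listed window.

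The members were bright. Their log2 intensities, made by the submitters with RMA, averaged from 7.107 for Egln3 to 11.69 for Ldha over the 24 arrays, and 9 of the 10 lay among the brightest 10% of genes. Such levels also depend on the probes, so no gene's level is compared with another's. The arrays did not share a common spread of values: over the tested genes the interquartile range was 2.57 to 2.88 in No treatment day 3 and 2.08 to 2.33 in IL-12TD day 3. Genes in the brightest 10% had a median log2 difference of -0.58 between day 7 and day 3 in Mock, where the median of all genes was 0.08. For this reason the members are also given after a second quantile normalization, which makes the spread equal on all arrays. The 8 melanocyte markers that define the labelled tumour had a mean log2 intensity of 10.47 to 11.28 on every array. In bulk tumour RNA, fewer cells of a type and less RNA per cell cannot be told apart.

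Levels of the members are shown first by gene. Car9 was highest in No treatment day 7 (mean log2 10.31 ± 0.36, SD, n = 4) and lowest in IL-12TD day 7 (9.12 ± 0.16). Neighbouring groups in this order overlapped except Mock day 3 (9.73 ± 0.09) and IL-12TD day 3 (9.37 ± 0.17). Vegfa was higher in all day 7 groups (means 10.03 to 10.5) than in all day 3 groups (means 8.51 to 8.92), with no overlap between the days. Hk2 had the same order of days, at 9.25 to 9.52 against 8.59 to 8.7. Slc2a1 and Bnip3 stood in the opposite order, Slc2a1 at 10.99 to 11.17 on day 3 and 10.59 to 10.78 on day 7, and Bnip3 at 10.95 to 11.06 and 10.35 to 10.62. Pdk1 was lowest in both IL-12TD groups (7.77 ± 0.12 and 7.88 ± 0.23). Adm was lowest in IL-12TD day 7 (9.07 ± 0.16). The Ldha means ran from 11.53 to 11.89 and the Ndrg1 means from 8.76 to 9.36. Egln3 means ran from 6.57 in No treatment day 7 to 7.64 in IL-12TD day 3.

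**Figure D1:**
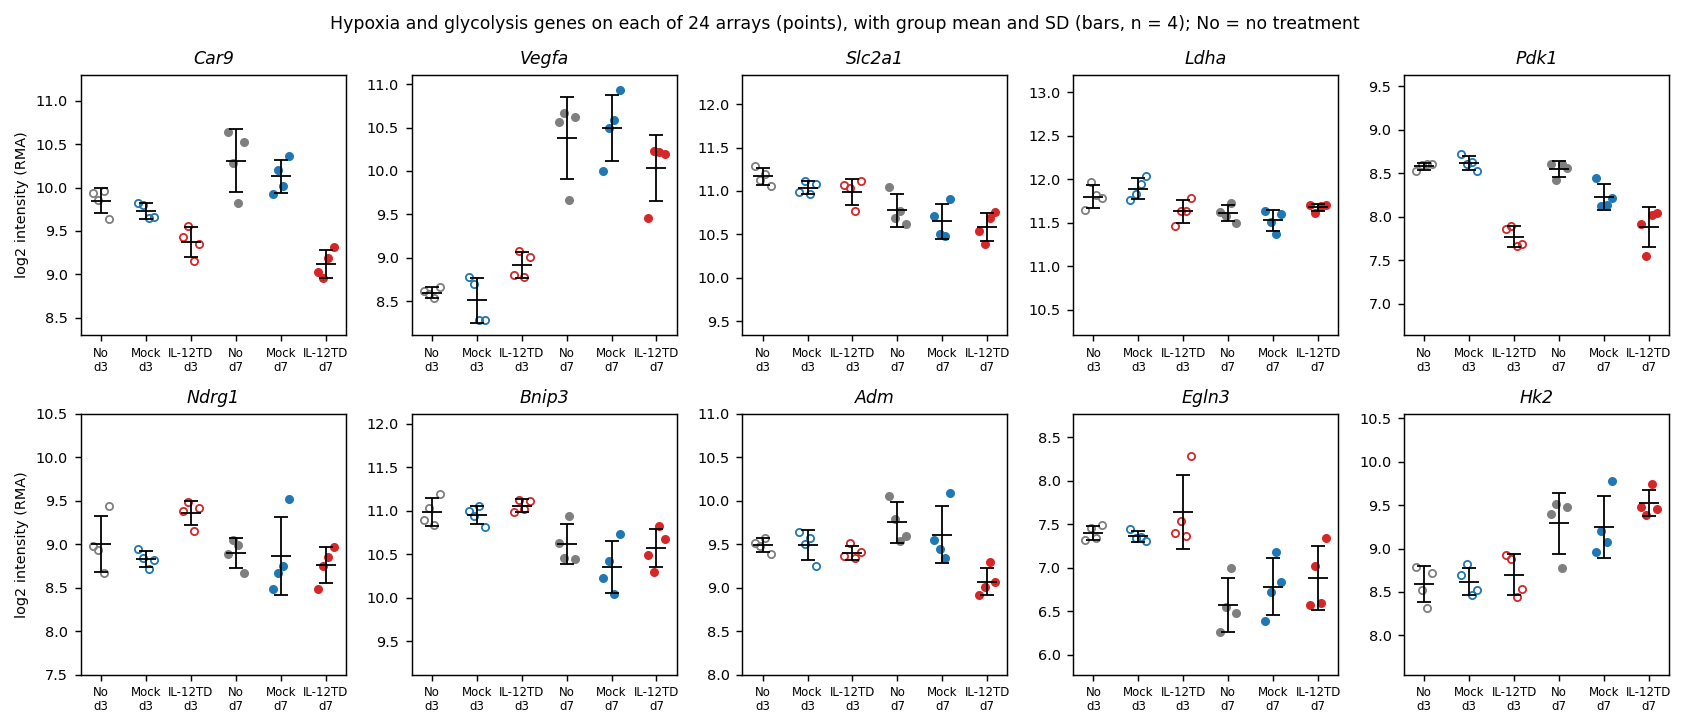
Log2 intensity (RMA) of the 10 members on each of 24 arrays (points), by treatment arm and day, with bars for the group mean and SD (n = 4); each panel spans 3 log2 units. Vegfa lies at 8.29 to 9.08 on day 3 and at 9.46 to 10.93 on day 7, and Car9 in IL-12TD day 7 lies at 8.96 to 9.31, below every other day 7 array.

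In the comparison of IL-12TD with Mock, both arms were irradiated and given T cells. The Mock cells were un-transduced, so it covers transduction and interleukin-12 together, and these cannot be told apart. At day 7, Car9, Adm and Pdk1 were lower in IL-12TD tumours and no member was higher. The share of all tested genes called at an adjusted p under 0.05 was 8.83% lower and 12.9% higher, so 3 of 10 lower stands beside 8.83% of all genes. Without dim genes the shares were 12.2% lower and 19.4% higher. The median difference of the 10 members was -0.07, and that of all genes was -0.08.

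Car9 had the largest of these differences. Its log2 values were 9.03, 8.96, 9.19 and 9.31 in IL-12TD against 9.92, 10.20, 10.02 and 10.36 in Mock at day 7. All IL-12TD tumours lay below all Mock tumours, at 2.01-fold lower (log2 difference -1.0 ± 0.14, SE, adjusted p = 7.44e-06 by limma). After the second quantile normalization the difference was -1.15 (adjusted p = 1.51e-06).

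Adm values were 8.91, 9.01, 9.29 and 9.06 in IL-12TD and 9.55, 9.45, 9.34 and 10.09 in Mock. The groups did not overlap, although the highest IL-12TD tumour and the lowest Mock tumour were close. The level was 1.45-fold lower in IL-12TD (log2 difference -0.54 ± 0.14, adjusted p = 0.00669).

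Pdk1 values were 7.92, 7.55, 8.02 and 8.04 in IL-12TD and 8.45, 8.12, 8.13 and 8.22 in Mock. Again there was no overlap, and the difference was smaller, at 1.27-fold (-0.35 ± 0.11, adjusted p = 0.0287). It missed the threshold without Mock replicate 1 or 4 or without IL-12TD replicate 1 or 2 (adjusted p = 0.0508 to 0.122), and in a fit of the compared groups alone (0.0877). The second quantile normalization gave -0.57 (adjusted p = 8.73e-05).

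Vegfa did not pass at day 7 (-0.47 ± 0.2, adjusted p = 0.0963). Its values were 9.46, 10.23, 10.22 and 10.20 in IL-12TD and 10.00, 10.49, 10.59 and 10.93 in Mock, which overlap through Mock replicate 1. Without that array the difference was -0.64 (adjusted p = 0.0203), and after the second quantile normalization it was -0.71 (adjusted p = 0.02). The other 6 members, Slc2a1, Ldha, Ndrg1, Bnip3, Egln3 and Hk2, differed by -0.09 to 0.26 with adjusted p from 0.277 to 0.767. The 95% interval for Slc2a1 was -0.3 to 0.19 and that for Ldha was -0.07 to 0.36.

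At day 3, Pdk1, Car9 and Ldha were lower in IL-12TD than in Mock tumours and Ndrg1 was higher. Of all tested genes 25.9% were called lower and 17.3% higher in this comparison, beside 3 and 1 of the 10 members. All 10 members passed the filter on dim genes, and of the 13424 genes that did, 38.9% were called lower and 13.6% higher. Pdk1 values were 7.86, 7.89, 7.66 and 7.69 in IL-12TD against 8.72, 8.60, 8.63 and 8.52 in Mock. All IL-12TD tumours were well below all Mock tumours, at 1.8-fold lower (-0.85 ± 0.11, adjusted p = 1.63e-06), and the second quantile normalization left -0.56 (adjusted p = 9.16e-05).

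Ndrg1 values were 9.38, 9.48, 9.15 and 9.42 in IL-12TD and 8.94, 8.84, 8.72 and 8.82 in Mock. The groups did not overlap and the level was 1.45-fold higher in IL-12TD (0.53 ± 0.17, adjusted p = 0.0148).

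Car9 and Ldha passed narrowly at day 3, and neither call was stable. Car9 values of 9.43, 9.56, 9.16 and 9.35 in IL-12TD lay below the Mock values of 9.82, 9.80, 9.65 and 9.66 (-0.36 ± 0.14, adjusted p = 0.0451). After the second quantile normalization the difference was -0.2 (adjusted p = 0.34), and after centring each array on its median -0.34 (adjusted p = 0.0595). Ldha values overlapped (11.46 to 11.78 against 11.76 to 12.04) with a difference of -0.27 ± 0.11 (adjusted p = 0.0437), which became -0.22 (adjusted p = 0.0962) after the second quantile normalization. With the replicate number as a block the Ldha adjusted p was 0.0526. In both genes the call was also lost on leaving out single arrays: Car9 without any of 7 arrays (adjusted p = 0.0547 to 0.142) and Ldha without any of 6 (0.0506 to 0.141).

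Vegfa was not called at day 3 (0.41 ± 0.2, adjusted p = 0.105), with values of 8.78 to 9.08 in IL-12TD and 8.29 to 8.78 in Mock. It passed after the second quantile normalization (0.61, adjusted p = 0.0426) and in a fit of the compared groups alone (0.41, adjusted p = 0.0372). Against No treatment at day 3 Vegfa was not called either (0.32 ± 0.2, adjusted p = 0.21), although those values did not overlap. The remaining members, Slc2a1, Bnip3, Adm, Egln3 and Hk2, differed by -0.09 to 0.28 with adjusted p from 0.23 to 0.792.

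Car9, Adm and Pdk1 were also the members called against No treatment. These comparisons share the IL-12TD arrays with those above. At day 7, Car9 (-1.19 ± 0.14, adjusted p = 3.59e-07, 2.28-fold), Adm (-0.68 ± 0.14, adjusted p = 0.000708) and Pdk1 (-0.66 ± 0.11, adjusted p = 6.31e-05) were lower in IL-12TD. None of the 10 was higher, where 8.61% of all genes were called lower and 11.8% higher (12.7% and 16.9% without dim genes). No treatment values at day 7 were 10.64, 10.28, 9.82 and 10.52 for Car9, 10.06, 9.79, 9.54 and 9.59 for Adm, and 8.60, 8.42, 8.61 and 8.56 for Pdk1. Each of the 3 genes was free of overlap with IL-12TD. At day 3, Pdk1 (-0.81 ± 0.11, adjusted p = 2.9e-06) and Car9 (-0.48 ± 0.14, adjusted p = 0.00984) were lower and no member was higher, beside 25.8% of all genes lower and 16.1% higher (39.0% and 13.2% without dim genes). For Car9 at day 3 the second quantile normalization again left no call (-0.33, adjusted p = 0.101). Ndrg1 was not called against No treatment at day 3 (0.36 ± 0.17, adjusted p = 0.0973). Without No treatment replicate 4, which at 9.44 was the highest of its group, it was (0.5, adjusted p = 0.0244).

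**Figure D2:**
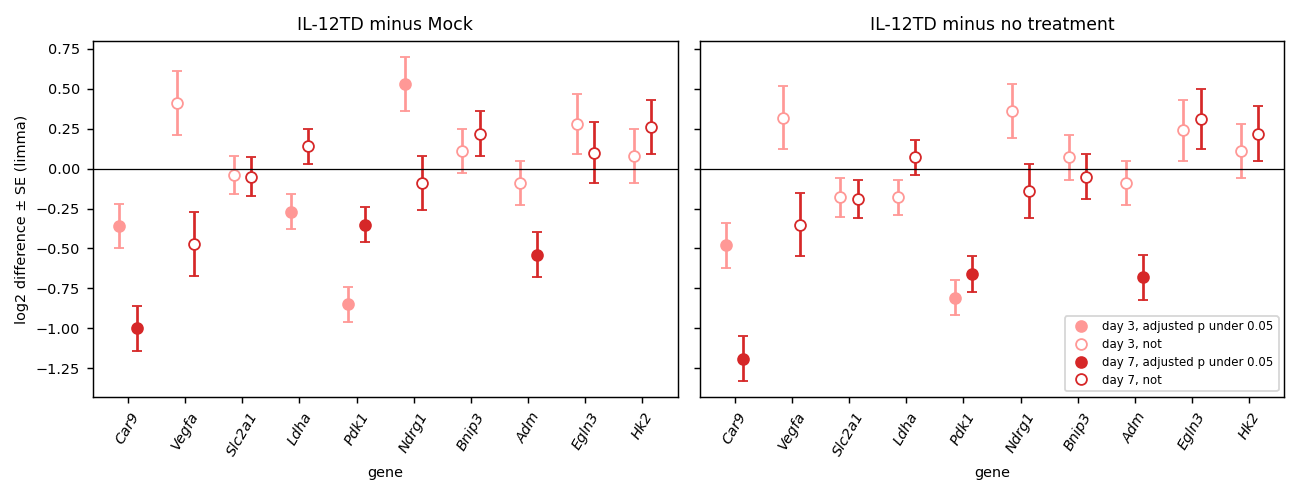
Log2 difference (points) with SE (bars) of each member between IL-12TD and Mock (left) or No treatment (right), at day 3 (pale) and day 7 (dark); filled points have an adjusted p under 0.05 in limma. Car9 at day 7 reaches -1.0 and -1.19, Adm is filled at day 7 only, and Pdk1 is filled in all 4 comparisons.

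Other cell types moved with these differences. The 8 pan-leukocyte markers were all higher in IL-12TD than in Mock on both days (median log2 difference 1.77 at day 3 and 1.74 at day 7), and so were the 7 measured T cell markers (2.8 and 1.83). By array, the mean log2 intensity of the pan-leukocyte list was 8.57 to 8.96 in IL-12TD and 6.92 to 7.36 in Mock at day 3, and 8.16 to 8.63 and 6.23 to 7.07 at day 7. All 8 neutrophil markers were higher in IL-12TD at day 3 (median 2.33) and 1 of 8 at day 7 (median -0.04). Of 8 melanocyte markers, 5 were lower in IL-12TD at day 3 (median -0.4). At day 7, 1 of 8 was lower, with a list median of 0.11, or -0.06 after the second quantile normalization. The mean of the melanocyte list at day 7 was 10.61 to 11.06 in IL-12TD and 10.47 to 11.28 in Mock, which overlap. Of 7 measured cell cycle genes, 7 were lower in IL-12TD at day 3 (median -1.44) and 5 at day 7 (median -0.56).

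Erythroid markers also differed. Of 4 measured, none was called at day 3 (median 0.18) and 2 were lower in IL-12TD at day 7 (median -0.71). Alas2, the first enzyme of heme synthesis in red cell precursors, was 5.51-fold lower at day 7 (-2.46 ± 0.29, adjusted p = 2.58e-07), and Slc4a1, the anion exchanger of red cells, had a difference of -1.12 ± 0.24 (adjusted p = 0.00103). The mean of the erythroid list at day 7 was 4.98 to 5.44 per array in IL-12TD and 5.97 to 6.44 in Mock, with no overlap. Of 8 endothelial markers, 4 were lower and 1 higher in IL-12TD at day 3 (median -0.41), and 3 lower and 1 higher at day 7 (median -0.11). Of 7 measured macrophage and monocyte markers, 1 was higher at day 3 (median 0.34) and 3 at day 7 (median 0.72). Of 8 fibroblast markers, 1 was higher and 1 lower at day 3, and 2 higher and 1 lower at day 7. The part of these shifts in the differences of the members was not tested.

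The comparison of Mock with No treatment asks what irradiation and un-transduced T cells did together. No member was called at either day, and 0.0% of all genes were. At an unadjusted p under 0.05, limma had 0 members and 329 genes (1.65%) at day 3, and 1 member and 2767 genes (13.9%) at day 7. The lack of calls therefore does not show that the arms were alike at day 7. That member was Pdk1, with 8.45, 8.12, 8.13 and 8.22 in Mock against 8.42 to 8.61 in No treatment (-0.32 ± 0.11, adjusted p = 0.251). Differences of the 10 members ran from -0.18 to 0.09 at day 3 and from -0.32 to 0.21 at day 7, and their 95% intervals reached from -0.53 to 0.39 and from -0.55 to 0.6. The change of this difference between the days was called for none of the members and 0.0% of genes (unadjusted p under 0.05 for 1 member and 1420 genes, 7.12%).

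Whether the effect of IL-12TD against Mock differed between the days was tested directly, as the day 7 difference minus the day 3 difference. The change was negative for Vegfa (-0.88 ± 0.29, adjusted p = 0.0167), Car9 (-0.64 ± 0.2, adjusted p = 0.0141) and Ndrg1 (-0.63 ± 0.24, adjusted p = 0.0406). It was positive for Pdk1 (0.5 ± 0.16, adjusted p = 0.0147) and Ldha (0.41 ± 0.15, adjusted p = 0.0303). Of all genes 18.4% changed negatively and 24.1% positively (12.4% and 35.8% without dim genes). Adm, called at day 7 and not at day 3, had a change of -0.45 ± 0.2 that did not pass (adjusted p = 0.0673). For Vegfa the day 3 difference was above 0 and the day 7 difference below it. Neither passed on its own in the fit of the deposited values over all 24 arrays. Without IL-12TD day 7 replicate 1 the Vegfa change was -0.69 (adjusted p = 0.0511). The Ndrg1 call was lost without any of 9 arrays of the 16 (adjusted p = 0.0526 to 0.116, the last without Mock day 7 replicate 4), and the Ldha call without any of 6 (0.051 to 0.0717). The Pdk1 and Ldha changes depended on the scale. After the second quantile normalization Pdk1 changed by -0.01 (adjusted p = 0.981) and Ldha by 0.16 (adjusted p = 0.412), whereas Vegfa (-1.32), Car9 (-0.95) and Ndrg1 (-1.03) stayed called and Adm was added (-0.83, adjusted p = 0.00412). The brightest 10% of genes had a median change of 0.44 before that normalization.

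The comparison of day 7 with day 3 within an arm gave the largest differences of any member. Vegfa, the main vascular growth factor of the set, was higher at day 7 in every arm. Its values in No treatment were 8.62, 8.58, 8.54 and 8.67 at day 3 and 10.56, 10.67, 9.67 and 10.62 at day 7. The lowest day 7 tumour, replicate 3, was still well above all day 3 tumours, and the rise was 3.43-fold (1.78 ± 0.2, adjusted p = 5.84e-07). In Mock the rise was 3.96-fold (1.99 ± 0.2, adjusted p = 3.84e-08), from values of 8.78, 8.70, 8.29 and 8.29. In IL-12TD it was 2.16-fold (1.11 ± 0.2, adjusted p = 7.84e-05), from a day 3 level of 8.78 to 9.08.

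Hk2, which traps glucose in the cell, rose from day 3 to day 7 by 0.7 ± 0.17 in No treatment (adjusted p = 0.00206), 0.63 ± 0.17 in Mock (adjusted p = 0.00362) and 0.82 ± 0.17 in IL-12TD (adjusted p = 0.000403). In No treatment the day 3 values were 8.79, 8.52, 8.32 and 8.72, and the day 7 values 9.40, 9.51, 8.78 and 9.48. Replicate 3 alone fell within the day 3 range. In the other arms the days did not overlap. The Vegfa and Hk2 rises passed in all 3 arms after the second quantile normalization too, at 2.11, 2.43 and 1.11 for Vegfa and 1.08, 1.14 and 0.84 for Hk2.

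Car9 was higher at day 7 in No treatment (0.46 ± 0.14, adjusted p = 0.0134) and Mock (0.39 ± 0.14, adjusted p = 0.025), and in IL-12TD the difference was -0.25 ± 0.14 (adjusted p = 0.167). Centring each array on its median took the Mock difference to 0.33 (adjusted p = 0.0665), and the second quantile normalization took it to 0.82 (adjusted p = 0.000103). The No treatment call was lost without day 3 replicate 4 or day 7 replicate 1 or 4 (adjusted p = 0.053 to 0.0668). The Mock call was lost without day 3 replicate 3 or 4 or day 7 replicate 2 or 4 (0.0599 to 0.0905). Adm was not called between days as deposited. Its differences were 0.26 in No treatment (adjusted p = 0.164), 0.12 in Mock (adjusted p = 0.489) and -0.33 in IL-12TD (adjusted p = 0.0583). The IL-12TD days did not overlap, and that difference passed with arrays centred on their median (-0.42, adjusted p = 0.0193), without dim genes (adjusted p = 0.0497), in the compared groups alone (0.0395) and without day 7 replicate 3 (-0.41, adjusted p = 0.0357). The differences of No treatment (0.62, adjusted p = 0.00211) and Mock (0.6, adjusted p = 0.0016) passed after the second quantile normalization.

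Egln3 was lower at day 7 in all arms. In No treatment it fell from 7.32, 7.46, 7.34 and 7.49 to 6.26, 6.55, 7.00 and 6.48, with no overlap (-0.83 ± 0.19, adjusted p = 0.00124). The Mock difference was -0.58 ± 0.19 (adjusted p = 0.0139) and the IL-12TD difference -0.76 ± 0.19 (adjusted p = 0.00212). Without Mock day 7 replicate 1 the Mock difference was -0.45 (adjusted p = 0.0582). In IL-12TD day 3, replicate 4 stood at 8.28 and the other tumours at 7.36 to 7.54. After the second quantile normalization the Mock fall was no longer called (-0.23, adjusted p = 0.42).

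Slc2a1 was lower at day 7 by a like amount in each arm as deposited, -0.39 ± 0.12 in No treatment (adjusted p = 0.0136), -0.39 ± 0.12 in Mock (adjusted p = 0.0101) and -0.4 ± 0.12 in IL-12TD (adjusted p = 0.0098). After the second quantile normalization only the IL-12TD fall passed (-0.37, adjusted p = 0.0127), and the others were -0.1 and -0.03. The No treatment call was also lost without day 7 replicate 4 (adjusted p = 0.0535). Bnip3 followed the same course. It was lower at day 7 by -0.37 ± 0.14 in No treatment (adjusted p = 0.0423), -0.6 ± 0.14 in Mock (adjusted p = 0.000996) and -0.49 ± 0.14 in IL-12TD (adjusted p = 0.0065), and after that normalization the IL-12TD fall passed (-0.46, adjusted p = 0.00475) while the others were -0.09 and -0.26. The No treatment call was lost without day 3 replicate 2 or 4 or day 7 replicate 1, 2 or 4 (adjusted p = 0.0647 to 0.136). The second Bnip3 probeset, dimmer at group means of 9.17 to 9.67, was called in Mock (-0.45, adjusted p = 0.0392) and in neither No treatment (-0.28, adjusted p = 0.229) nor IL-12TD (-0.29, adjusted p = 0.196). Its mean was lower in IL-12TD than in Mock at day 3 (9.46 against 9.67) and day 7 (9.17 against 9.23). The kept probeset had the opposite order (11.06 against 10.95, and 10.57 against 10.35). Neither probeset was called between IL-12TD and Mock.

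Pdk1 (-0.39 ± 0.11, adjusted p = 0.00588) and Ldha (-0.36 ± 0.11, adjusted p = 0.00635) were lower at day 7 in Mock and were not called in the other arms as deposited. The change of the Mock against No treatment difference between days was not called for either (adjusted p = 0.683 for Pdk1 and 0.797 for Ldha). The second quantile normalization turned the Pdk1 difference to 0.09 (adjusted p = 0.517), and in No treatment it made a Pdk1 difference of -0.03 (adjusted p = 0.862) into a rise of 0.33 (adjusted p = 0.0131). Ldha in Mock became -0.17 (adjusted p = 0.192). Ndrg1 was lower at day 7 in IL-12TD (-0.6 ± 0.17, adjusted p = 0.0066). In Mock its difference was 0.03 (adjusted p = 0.905), and after the second quantile normalization it was called as higher (0.55, adjusted p = 0.0261).

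In counts, No treatment had 3 members higher and 3 lower at day 7, beside 11.3% and 24.2% of all genes. Mock had 3 higher and 5 lower, beside 23.8% and 27.1%. After the second quantile normalization Mock had 5 higher and 0 lower, beside 17.3% and 19.1% of all genes. No treatment then had 5 higher and 1 lower, beside 12.5% and 14.5%. As deposited, IL-12TD had 2 higher and 4 lower, beside 20.2% and 21.6%. Without dim genes the shares of all genes higher and lower were 12.6% and 36.6% in No treatment, 22.1% and 40.3% in Mock, and 28.3% and 22.8% in IL-12TD. Median differences of the members were -0.07, -0.17 and -0.29 in these 3 arms, and those of the brightest 10% of genes were -0.44, -0.58 and -0.21.

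Cell type markers moved with day too. Of 4 measured erythroid markers, 2 were higher at day 7 in No treatment (median 1.32), 3 in Mock (median 1.06) and 1 in IL-12TD (median 0.32). Alas2 was 16.8-fold higher in No treatment (4.07 ± 0.29, adjusted p = 1.9e-10) and 18.1-fold higher in Mock (4.18 ± 0.29, adjusted p = 1.54e-10). The mean of the erythroid list per array lay at 4.53 to 4.65 on day 3 and 5.79 to 6.74 on day 7 in No treatment. In Mock these ranges were 4.52 to 4.64 and 5.97 to 6.44, and in IL-12TD 4.67 to 4.8 and 4.98 to 5.44, with no overlap of the days in any arm. Of 7 macrophage and monocyte markers, 6 were lower at day 7 in No treatment, 5 in Mock and 3 in IL-12TD (medians -1.38, -1.02 and -0.37). Of 8 pan-leukocyte markers, 7, 3 and 2 were lower in these arms (medians -1.12, -0.46 and -0.41), and of 8 endothelial markers 6, 4 and 2 (medians -0.68, -0.52 and -0.22), with 1 higher in No treatment and in Mock. The mean of the endothelial list was 5.94 to 6.35 per array at day 3 and 5.4 to 5.52 at day 7 in No treatment. Of 7 measured cell cycle genes, 6 were lower in No treatment, where 1 was higher, and 6 in Mock (medians -0.6 and -1.02). In IL-12TD 2 were higher and 2 lower. Of 8 fibroblast markers, 5 were lower in No treatment (median -0.58). In Mock 1 was higher and 1 lower, and in IL-12TD 2 were higher and 3 lower. Of 8 melanocyte markers, 3 were lower in No treatment, 3 were lower in Mock and 1 was higher in IL-12TD (medians -0.13, -0.26 and 0.14). All 8 neutrophil markers were lower in IL-12TD at day 7 (median -2.17), and 4 of 7 T cell markers were (median -0.49). In Mock 2 neutrophil and 2 T cell markers were higher, and in No treatment 1 T cell marker was. The part of these shifts in the differences of the members was not tested.

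**Figure D3:**
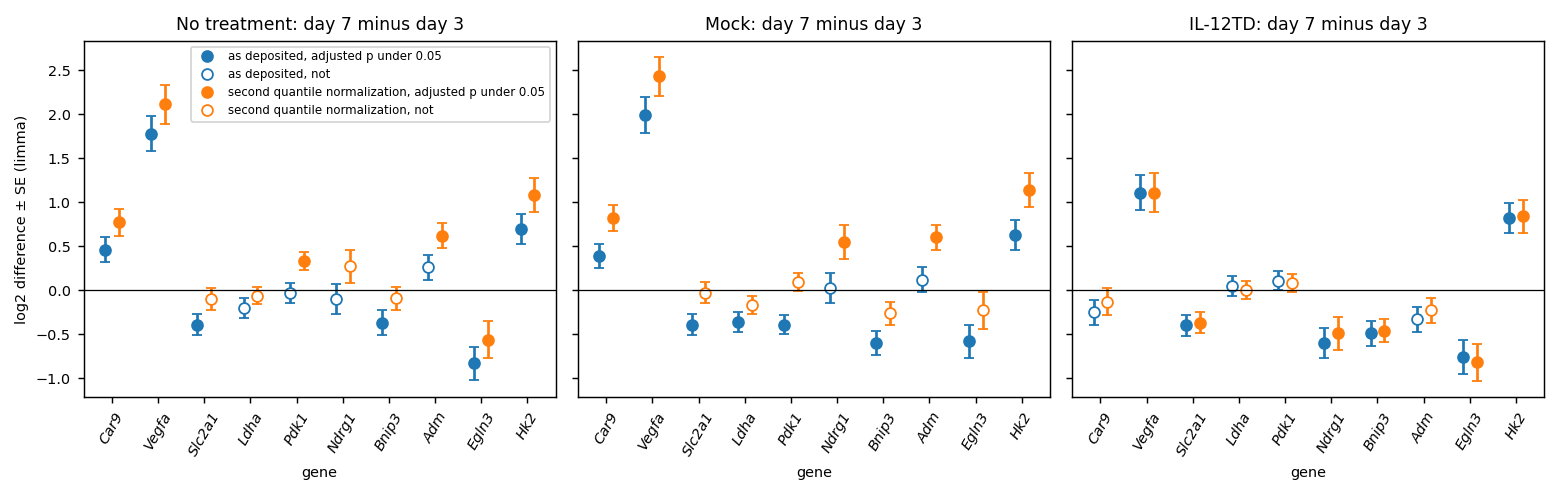
Log2 difference between day 7 and day 3 (points) with SE (bars) of each member in the No treatment, Mock and IL-12TD arms, from the deposited values (blue) and after a second quantile normalization (orange); filled points have an adjusted p under 0.05 in limma. Vegfa and Hk2 are filled and above 0 in every panel, and the Mock falls of Slc2a1, Ldha, Pdk1, Bnip3 and Egln3 are filled in blue only.

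Other genes of the pathway were read from 5 lists. Their counts between IL-12TD and Mock stand beside 25.9% of all genes lower and 17.3% higher at day 3, and 8.83% lower and 12.9% higher at day 7. Those between the days stand beside 24.2%, 27.1% and 21.6% of all genes lower in No treatment, Mock and IL-12TD, and 11.3%, 23.8% and 20.2% higher. Among 14 measured glycolytic enzymes, 1 was higher and 2 lower in IL-12TD than in Mock at day 3, and 1 higher and 3 lower at day 7. The higher gene on both days was Hk3, a hexokinase found mainly in myeloid cells (0.97 ± 0.22, adjusted p = 0.00119, and 1.37 ± 0.22 at day 7). The phosphofructokinase Pfkm was lower on both days (-0.54 and -0.4), though the day 3 difference was not called after the second quantile normalization (-0.24, adjusted p = 0.171). Pgam1 was lower at day 3 (-0.44) and the aldolase Aldoc at day 7 (-0.62). From day 3 to day 7, 7 of the 14 enzymes were lower and 1 was higher in No treatment and in Mock, and 5 were lower and 1 higher in IL-12TD. In No treatment Pgam1 (-0.8), Pgk1 (-0.64) and Aldoa (-0.48) were lower and Eno2 was higher (1.03). These 4 passed after the second quantile normalization too, where the list had 3 lower and 2 higher and its median was -0.03 in place of -0.31.

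Among 9 measured genes of lactate, pyruvate and glucose transport, the glucose transporter Slc2a3 was higher in IL-12TD than in Mock on both days (0.44 ± 0.15, adjusted p = 0.0217, and 0.87 ± 0.15). At day 7 it was the 1 gene called, with 0 lower. At day 3 the kinase Pdk2 (-0.56), the pyruvate dehydrogenase subunit Pdha1 (-0.49) and the lactate transporter Slc16a1 (-0.42) were lower. Of these Pdk2 alone passed after the second quantile normalization (-0.36, adjusted p = 0.0471). Between the days 6 of the 9 were lower in No treatment and 1 was higher (median -0.57). The pyruvate carrier subunit Mpc1 (-1.28), Slc16a1 (-0.99) and Ldhb (-0.83) fell, and also passed after that normalization, at -0.97, -0.7 and -0.51.

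Of 8 genes of oxygen sensing and HIF itself, 4 were lower in IL-12TD than in Mock at day 3 and none higher, beside 25.9% and 17.3% of all genes. These were Epas1, an alpha subunit (-0.62), the inhibitor Hif1an (-0.48), the prolyl hydroxylase Egln1 (-0.43) and the shared subunit Arnt (-0.43), of which Hif1an alone was called after the second quantile normalization (-0.33, adjusted p = 0.0276). At day 7, Hif1a, the main alpha subunit, was higher in IL-12TD (0.77 ± 0.16, adjusted p = 0.000694, and 0.58 after that normalization), as was Arnt (0.41, or 0.21 and not called). Hif1a RNA was higher in the comparison with Mock in which Car9, Adm and Pdk1 were lower. These 3 members were also lower against No treatment at day 7. There 0 of the 8 genes of this list were called higher and 0 lower (median -0.01), beside 11.8% and 8.61% of all genes. In Mock, Hif1a was itself lower at day 7 than at day 3 (-1.14 ± 0.16, adjusted p = 1.77e-06).

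Of 18 other genes known to be raised in hypoxia, 3 were higher and 2 lower at day 3, and 5 higher and 5 lower at day 7, with list medians of 0.09 and -0.15. The lower genes at day 7 were Fam162a (-0.88 ± 0.14, adjusted p = 4.74e-05), Higd1a (-0.76), P4ha2 (-0.65), Ak4 (-0.5) and Mxi1 (-0.5). Fam162a and Higd1a are mitochondrial proteins, Ak4 is a mitochondrial adenylate kinase, and P4ha2 is a collagen hydroxylase subunit. The higher ones were Kdm3a (0.66), Angptl4 (0.66), Hmox1 (0.56), P4ha1 (0.43) and Stc2 (0.38). After the second quantile normalization all 5 lower genes remained called and 6 were lower in all, while Hmox1 (0.37, adjusted p = 0.232) and P4ha1 (0.14, adjusted p = 0.282) were not called.

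Of 12 ligands and receptors of the VEGF and adrenomedullin families, 3 were lower and none higher at day 3, and 3 were higher and 2 lower at day 7. The ligands Pgf (-0.64 ± 0.17, adjusted p = 0.00814) and Vegfb (-0.58 ± 0.1, adjusted p = 0.000149) were lower at day 7. The receptors Nrp1 (0.96 ± 0.17), Flt4 (0.76 ± 0.17) and Nrp2 (0.52 ± 0.15) were higher, and all 5 calls passed after the second quantile normalization. While Vegfa rose with day in No treatment, its receptors Flt1 (-0.69) and Kdr (-0.61) and coreceptors Nrp1 (-0.86) and Nrp2 (-0.64) were lower, also after that normalization (-0.64, -0.69, -0.63 and -0.58). In Mock, Flt1 (-0.5), Nrp1 (-0.83) and Nrp2 (-0.48) were lower at day 7, and Kdr was not called (-0.39, adjusted p = 0.0734). In IL-12TD, where Vegfa also rose, 2 of the 12 genes were higher at day 7 and 2 lower (median -0.05).

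**Figure D4:**
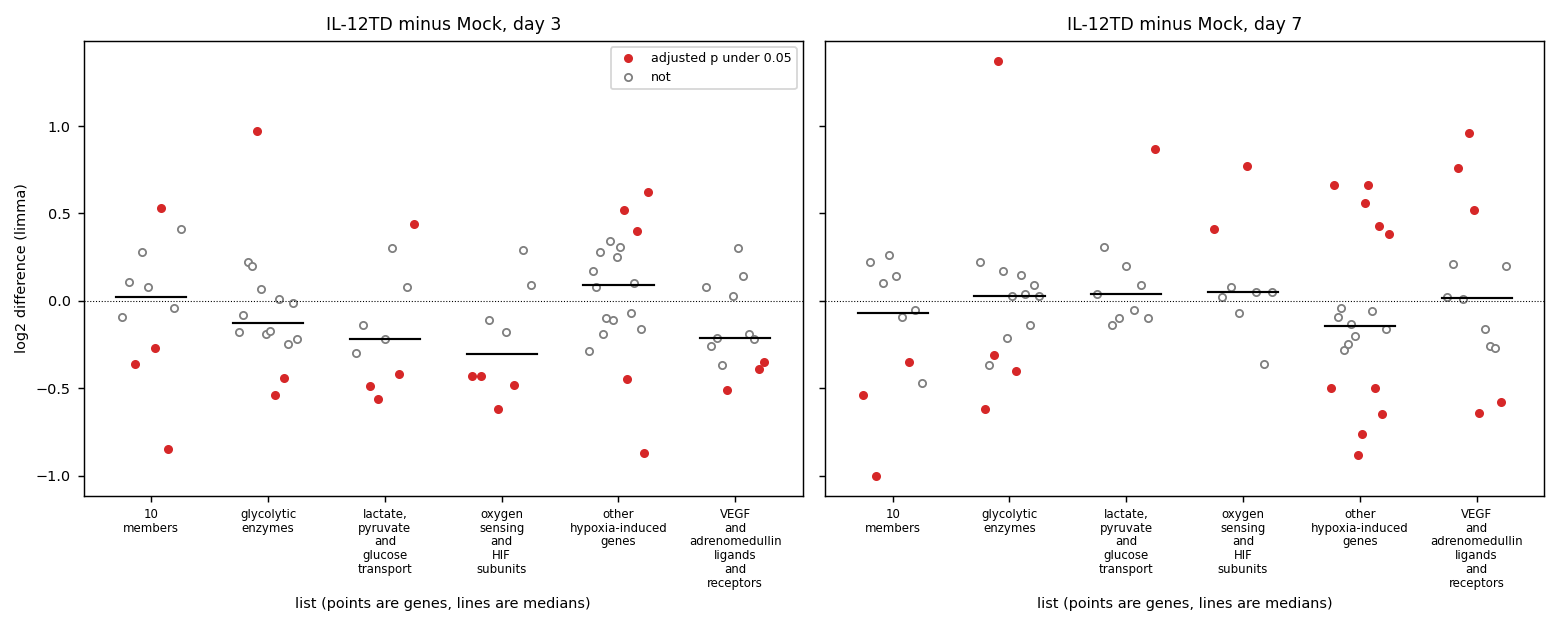
Log2 difference between IL-12TD and Mock at day 3 (left) and day 7 (right) for the 10 members and for each gene of 5 pathway lists (points), with the list median (line); red points have an adjusted p under 0.05 in limma. Points of every list lie on both sides of 0, and at day 7 the medians lie between -0.15 and 0.05.

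Genes whose values followed a member most closely were found over the 24 arrays, by the root mean square of the difference between the centred log2 values. This was done for the 3 members whose group means spanned at least 1 log2 unit. Nearest to Car9 were Rnf126 (0.16), Vcl (0.17) and P4ha2 (0.19). Nearest to Vegfa were Mapk8ip3 (0.2), Safb2 (0.24) and Safb (0.26), and nearest to Egln3 were Smox (0.17), Gabarap (0.21) and Rgs19 (0.23). P4ha2 was also among the genes lower in IL-12TD than in Mock at day 7. Those arrays are part of the 24, so this is not a separate observation.

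Within groups the members varied together on some arrays. Mock day 7 replicate 4 was the highest of its group for 7 of the 10 members, at a mean of 0.31 above its group, and had Ndrg1 at 9.52 where the other tumours had 8.48 to 8.75. That array also had the lowest mean of the melanocyte list in its group, 10.47. IL-12TD day 3 replicate 3 was the lowest of its group for 8 of 10 members. It also had the narrowest spread of its group, with an interquartile range of 2.08 over the tested genes against 2.31 to 2.33. The part of this spread in the low values of the members, most of which are bright, was not tested.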

How the data were processed

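The 24 Affymetrix whole-transcript arrays were deposited as log2 intensities per probeset. The submitters' processing notes name RMA. Its version, and whether the arrays went through it together, are not given in the sources used here. The deposited values span 1.009 to 14.367, as log2 values do. Of 35556 probesets, 21789 list a single gene, 1621 list several and 12146 none. A reference gene list supplied the symbols of 21698 probesets, and 91 kept the platform's symbol. Keeping the brightest probeset of the 999 genes that have more than 1 left 19938 genes.

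The test was limma 3.58.1 (R 4.3.3), two-sided, with a mean for each of 6 groups over 24 arrays, the default prior and no filter on intensity. Within each of 11 comparisons, p-values over the 19938 genes received the Benjamini-Hochberg adjustment, and an adjusted p under 0.05 was called. No pair of arrays was identical (0 pairs). Replicates are biological per the labels, with nothing further said of them, and 4 a group limits the precision. The fit was checked on simulated data.

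Members and lists were chosen with earlier results of these data known. Named genes are all 10 members, up to 3 called genes per list (those with the lowest adjusted p between IL-12TD and Mock) and, for members whose group means span at least 1 log2 unit, the 3 nearest named genes. Others named from the lists were chosen after their values were seen. Alternatives were a second quantile normalization, median centring, a filter on dim genes (above the 40th percentile on at least 4 arrays, 13424 kept), the replicate block, averaged probesets, a trended robust prior, the compared groups alone, leaving out each array and, added after seeing the data, the other Bnip3 probeset.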

Additional observations from a re-analysis of the deposited data

Results flagged for a closer look

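In 60 groups of 4 tumours (10 members in 6 groups) the gap between the most extreme tumour and its neighbour was set against the range of the group, and 3 exceeded Dixon's 95% critical ratio, where chance flags about 1 group in 20. Vegfa in No treatment day 7 had replicate 3 at 9.67 (ratio 0.892), and Vegfa in IL-12TD day 7 had replicate 1 at 9.46 (ratio 0.963). Hk2 in No treatment day 7 had replicate 3, the same tumour, at 8.78 (ratio 0.848). Each was the lowest of its group.

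The difference between IL-12TD and Mock changed between day 3 and day 7 in 5 of 10 members by limma's test of the change. Of all genes, 18.4% were called with a negative change and 24.1% with a positive one (12.4% and 35.8% without dim genes). Among the members, the difference became more negative for Vegfa (-0.88, adjusted p = 0.0167), Car9 (-0.64, adjusted p = 0.0141) and Ndrg1 (-0.63, adjusted p = 0.0406). It became more positive for Pdk1 (0.5, adjusted p = 0.0147) and Ldha (0.41, adjusted p = 0.0303). The Pdk1 and Ldha changes were not called after the second quantile normalization. The Vegfa, Ndrg1 and Ldha calls were each lost on leaving out certain single arrays.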

How the results depend on the processing

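The lower Car9, Adm and Pdk1 in IL-12TD at day 7 against No treatment, the lower Pdk1 at day 3 and the higher Vegfa and Hk2 at day 7 in each arm were called under every alternative run. Car9 and Adm at day 7 against Mock were too. After a second quantile normalization, members called between the days in Mock went from 8 to 5, and Pdk1 reversed in 3 results: to 0.33 in No treatment and 0.09 in Mock between the days, and to -0.01 for the change of the IL-12TD against Mock difference. Centring arrays on their median took the members called at day 3 between IL-12TD and Mock from 4 to 2. Leaving out single arrays gave 2 to 3 members for that comparison, 3 to 6 of 10 for No treatment between the days and 2 to 6 for the change of IL-12TD against Mock. A sign change where neither setting passed was counted as no change. Over all genes, calls between IL-12TD and Mock at day 3 went from 8610 to 5586 and those of the change between days from 8467 to 4998 after the second quantile normalization, and Mock against No treatment at day 7 went from 0 to 9. The share of calls that were higher moved from 59.4% to 47.1% at day 7 between IL-12TD and Mock, from 57.8% to 45.4% against No treatment (39.3% with centring), and from 31.8% to 46.2% between the days in No treatment. Centring moved it from 48.4% to 36.9% between the days in IL-12TD. Without dim genes the share higher at day 3 moved from 40.1% to 25.9% between IL-12TD and Mock. Against No treatment it moved from 38.4% to 25.3%. It moved from 46.8% to 35.4% between the days in Mock, and from 56.7% to 74.3% for the change of IL-12TD against Mock. The cause of these shifts was not tested.

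The replicate block left all calls of members as they were except Ldha between IL-12TD and Mock at day 3 (adjusted p = 0.0526), and gave 3 members there in place of 4. The numbers showed no steady pairing of the tumours. Same-numbered tumours correlated at -0.28 to 0.52 in their deviations, and 0 of 15 pairs of groups had all correlations over 0.1. With 4 tumours a group, this check cannot exclude a pairing. The number of arrays limits the size of difference that can be seen.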
